A study of Mus musculus with 16 samples.

Results

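The question addressed here was whether the effect of LRG1 overexpression on visceral fat differed between week 7 and week 10 of age in db/db mice. The quantity is an interaction, the LRG1 minus eGFP difference at week 10 minus the same difference at week 7 on the log2 scale. A positive value means that LRG1 lowered a gene less, or raised it more, at week 10 than at week 7. Of 55573 genes in the count table, the 20822 that passed a filter on low counts were examined, in all 16 libraries. Calls were made in edgeR's quasi-likelihood test, with p adjusted over all 20822 genes by the Benjamini-Hochberg method and a threshold of 0.01, and 68 genes passed.

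RNA was sequenced from whole epididymal white adipose tissue (eWAT), the visceral depot beside the epididymis, of C57BLKS/J-db/db mice, which lack a working leptin receptor (Lepr) and become obese and diabetic. The mice received AAV8-eGFP, the control vector, or AAV8-LRG1, an adeno-associated virus with tropism for liver and fat and a constitutive promoter that expresses leucine-rich alpha-2-glycoprotein 1, a secreted protein of adipocytes and liver, with a C-terminal FLAG tag, and they were kept on standard chow. There were 4 groups of 4 libraries each, eGFP-7w, LRG1-7w, eGFP-10w and LRG1-10w, named for the vector and the age in weeks at harvest. All mice were males of the same strain, so all groups shared the db/db genotype and the viral injection, each time point came from other animals, and whole cages were assigned to a vector, so that cage and vector cannot be told apart. The AAV work of the paper used several db/db cohorts, and the labels do not give the cohort or day of harvest of each mouse. If cohorts differed by week, week and cohort cannot be told apart.

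Interferon-gamma is a cytokine made mainly by T cells and natural killer (NK) cells. It acts through its receptor and the kinases Jak1 and Jak2, and it induces guanylate-binding proteins (Gbp genes), immunity-related GTPases (Irgm and Igtp) and the activators Ciita and Nlrc5, and these in turn drive the genes of MHC class II and class I antigen presentation. In obese visceral fat this pathway is known from inflamed tissue that holds T cells, NK cells and macrophages. In whole tissue, fewer cells of a type and less RNA per cell cannot be told apart.

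Promoters of 4 genes whose LRG1 effect differed between the weeks are shown because they carry the binding motifs of this pathway. They run from 250 bases before to 50 bases after the RefSeq start site (300 bases, GRCm38.p6), 5′ to 3′ on the strand of the gene. Capitals mark either the interferon response element, searched as GAAA, any 2 bases, GAAA on either strand, or the gamma-activated site TTCNNNGAA, which reads the same on both strands.
Igtp, chr11:58199306-58199605, plus strand: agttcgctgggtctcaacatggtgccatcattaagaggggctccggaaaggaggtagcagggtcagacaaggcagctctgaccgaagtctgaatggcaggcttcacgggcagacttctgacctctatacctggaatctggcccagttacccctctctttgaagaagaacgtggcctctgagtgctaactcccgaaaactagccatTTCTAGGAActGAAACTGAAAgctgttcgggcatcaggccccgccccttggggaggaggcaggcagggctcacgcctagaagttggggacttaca
Irgm1, chr11:48871371-48871670, minus strand: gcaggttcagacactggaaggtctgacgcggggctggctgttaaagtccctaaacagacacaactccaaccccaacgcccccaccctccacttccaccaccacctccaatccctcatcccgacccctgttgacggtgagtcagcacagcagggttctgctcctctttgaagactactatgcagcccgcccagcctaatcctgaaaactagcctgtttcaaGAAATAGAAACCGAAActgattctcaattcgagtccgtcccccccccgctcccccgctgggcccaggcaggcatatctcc
Gbp2, chr3:142620413-142620712, plus strand: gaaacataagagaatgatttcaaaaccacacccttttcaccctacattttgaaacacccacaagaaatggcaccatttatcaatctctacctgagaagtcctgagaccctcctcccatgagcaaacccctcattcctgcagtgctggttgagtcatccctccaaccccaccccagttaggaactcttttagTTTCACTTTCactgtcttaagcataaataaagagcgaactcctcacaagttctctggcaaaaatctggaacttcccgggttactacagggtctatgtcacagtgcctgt
Psmb8, chr17:34197945-34198244, plus strand: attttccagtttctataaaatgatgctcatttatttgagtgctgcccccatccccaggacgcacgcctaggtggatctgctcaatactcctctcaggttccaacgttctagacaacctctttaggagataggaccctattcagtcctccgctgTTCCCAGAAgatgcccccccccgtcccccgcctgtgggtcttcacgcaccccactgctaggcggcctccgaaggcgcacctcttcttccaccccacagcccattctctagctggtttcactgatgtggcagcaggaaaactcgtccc
In Igtp the gamma-activated site and the interferon response element lay within 50 bases before the start site, Irgm1 held 2 overlapping interferon response elements, Gbp2 held 1 on the other strand, and Psmb8, a subunit of the immunoproteasome, held a gamma-activated site. Among the 31 interferon-gamma-induced genes of the list described below, 18 had a promoter in the RefSeq table, of which 11 (61.1%) held the interferon response element and 8 (44.4%) the gamma-activated site. Of all 27025 genes with a promoter there, 3.99% and 9.55% held them. Of the 64 genes with a called positive interaction, 43 were matched, and 9 (20.9%) and 5 (11.6%) held the motifs. Of the MHC class II genes, 0 of 8 matched promoters held the interferon response element and 1 held the gamma-activated site. A motif match is a description of the letters in this window.

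The libraries held 45376227 to 67539937 counts each. Lrg1 itself was at 86.2, 108, 110 and 107 CPM (counts scaled to a common library size) in the eGFP-7w libraries and at 478, 302, 316 and 288 in LRG1-7w, and at 99.6, 115, 106 and 105 in eGFP-10w and 506, 624, 428 and 286 in LRG1-10w. The vector groups did not overlap at either week, and the table does not separate vector from endogenous transcript. The LRG1 minus eGFP difference of Lrg1 was 1.75 ± 0.20 (log2, SE) at week 7 and 2.12 ± 0.20 at week 10, and its interaction was 0.37 ± 0.27 (adjusted p = 0.80, edgeR). The adipocyte markers Adipoq, Plin1 and Fabp4 were expressed in all groups, whereas 12 of 13 epididymis markers and 9 of 10 testis markers were too low to be tested. Mitochondrial ribosomal RNA took 25.0% of counts in eGFP-7w, 29.2% in LRG1-7w, 26.2% in eGFP-10w and 26.9% in LRG1-10w, and without mitochondrially encoded genes the calls given below were 63 and 4 in place of 64 and 4. The eGFP-10w libraries stood apart from each other, since libraries 1 and 3 were low in Adipoq (409 and 546 CPM) beside libraries 2 and 4 (1379 and 1144 CPM), which is taken up where a result rests on them.

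In the fit of all 16 libraries, the LRG1 effect differed between the weeks almost wholly in one direction. A positive interaction was called in 64 genes (0.307% of those tested) and a negative one in 4 (0.0192%), with 1953 genes at an unadjusted p below 0.05 and a lowest adjusted p of 0.000355. All 64 genes with a positive interaction were lower with LRG1 at week 7 (median -2.27, from -6.25 to -0.70 on the log2 scale). At week 10 their median LRG1 minus eGFP difference was -0.52, 60 of the 64 were still below 0, and the week 10 difference was a median of 22.6% of that at week 7. The 64 genes were chosen by the gap between the weeks in these same libraries. A smaller difference at week 10 than at week 7 therefore follows in part from the choice. The median interaction was 1.78, from 0.67 to 3.70. In contrast, all tested genes had a median interaction of -0.003 and a median 95% interval half-width of 0.59. For 11862 genes (57.0% of those tested) the interval of the interaction lay within -1 to 1, which bounds the difference between the weeks at 2-fold. The positive count ranged from 37 to 87 with 1 library left out. It was 37 without eGFP-7w library 4, LRG1-7w library 1 or LRG1-7w library 3, 39 without LRG1-10w library 1 or 3 and 41 without LRG1-7w library 4, and the negative count was 11 without eGFP-10w library 2. The sign of all 68 genes was kept each time. In an alternative chosen after seeing the data, leaving out eGFP-10w libraries 1 and 3 gave 284 positive and 182 negative calls. Leaving out libraries 2 and 4 gave 383 and 336. Each choice narrows a split group by its construction, which favours more calls in both directions. The near absence of negative calls was not kept in either. Of the 68 genes, 67 and 68 were among those calls, which the narrower spread favours, so that this is no support for them.

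**Figure D1:**
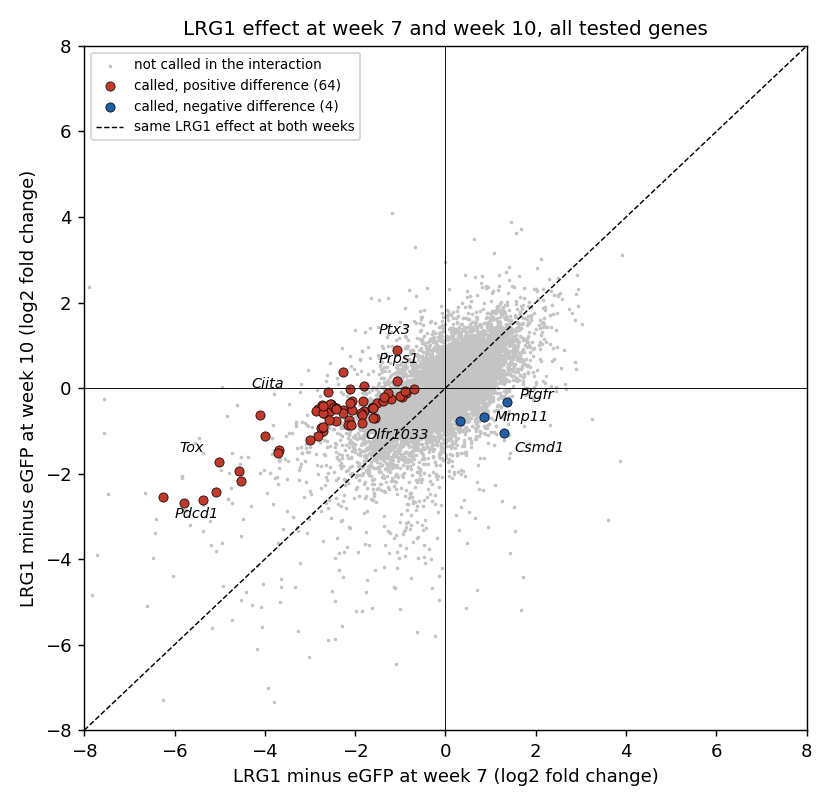
LRG1 minus eGFP log2 fold change at week 7 (x axis) against week 10 (y axis) for the 20822 tested genes; red, 64 genes with a called positive interaction; blue, 4 with a negative one; grey, genes not called; dashed line, the same effect at both weeks. The red points lie left of 0 at week 7. At week 10 they run from -2.68 to 0.89, with 60 below 0. Outside the plotted limits of -8 to 8 lie 3 genes.

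Because each gene's interaction is also the change from week 7 to week 10 with LRG1 minus that with eGFP, the called genes can be described by both changes. These changes come from the libraries that chose the genes, so they are given as a description, with no test. In the eGFP mice all 64 genes were lower at week 10 than at week 7 (median -1.44 on the log2 scale). In the LRG1 mice 62 of the 64 were above 0, with a median of 0.40. The eGFP change was the larger of the pair in 62 genes and the LRG1 change in 2, Prps1 and Ubd. Across all tested genes, 131 genes were higher (0.629%) and 315 lower (1.51%) at week 10 than at week 7 with eGFP, whereas with LRG1 there was 1 higher (0.0048%) and 1 lower (0.0048%), Prps1 and Orm2. LRG1 against eGFP gave 1534 genes higher (7.37%) and 2221 lower (10.7%) at week 7 and 762 higher (3.66%) and 1092 lower (5.24%) at week 10. These counts come from comparisons that share libraries and differ in spread, so that they do not by themselves show a smaller effect at week 10.

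**Figure D2:**
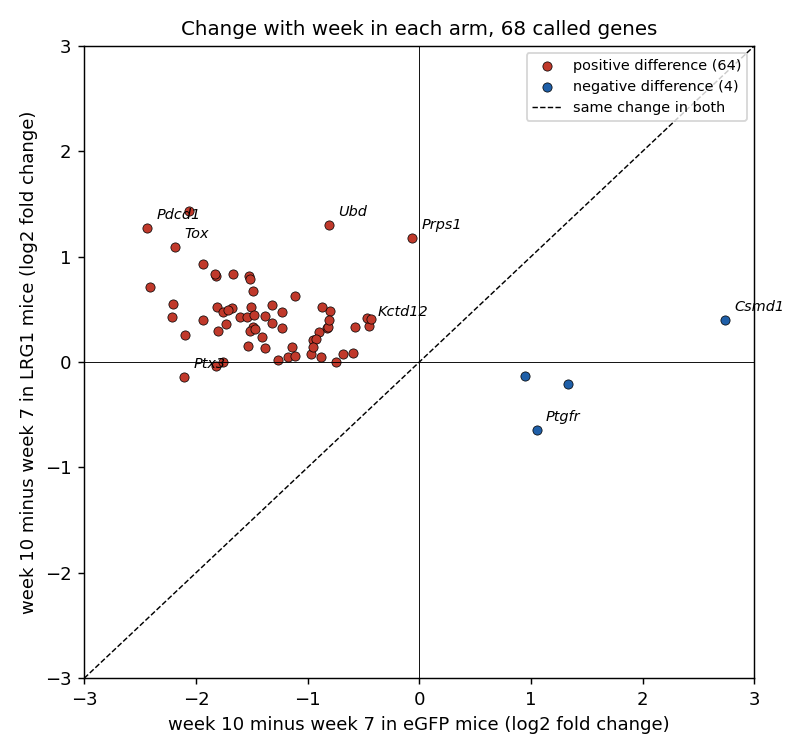
Week 10 minus week 7 log2 fold change in eGFP mice (x axis) and in LRG1 mice (y axis) for the 68 called genes; red, positive interaction; blue, negative interaction; dashed line, the same change in both arms. The red points lie left of 0 on the eGFP axis and mostly between 0 and 1 on the LRG1 axis.

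Among the 52 gene lists, that of interferon-gamma-induced genes held the most called genes. The lists overlap, and Ciita counts both here and among the MHC class II genes. Of 31 such genes tested, 16 had a called positive interaction and 0 a negative one, beside 0.307% and 0.0192% of all tested genes, and 31 of 31 were above 0 with a median of 1.79. The called count ranged from 8 to 21 with 1 library left out, with 8 without eGFP-7w library 4, LRG1-7w library 1 or 3, or LRG1-10w library 1 or 3, 9 without LRG1-10w library 2, and 10 without LRG1-7w library 4 or eGFP-10w library 1. Their median LRG1 minus eGFP difference was -2.72 at week 7, where 29 were called lower, beside 10.7% of all tested genes. At week 10 it was -0.92, where 18 were called lower, beside 5.24%. With eGFP 26 of the 31 were called lower at week 10 than at week 7 (median -1.47), beside 1.51% of all tested genes. With LRG1 0 of the 31 were called in either direction (median 0.33). That count says little of these genes, since only 0.0048% of all tested genes were called in each direction there. The summed level of the list was 2794 to 5405 CPM in eGFP-7w, 411.9 to 632.6 in LRG1-7w, 1133 to 1424 in eGFP-10w and 509 to 697.5 in LRG1-10w. The ranges of the vector groups did not overlap at either week, and those of LRG1-7w and LRG1-10w did.

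Igtp, an immunity-related GTPase, was at 302, 173, 133 and 245 CPM in eGFP-7w and at 4.73, 10.4, 4.14 and 6 in LRG1-7w. In eGFP-10w it was at 41.1, 35.6, 54.8 and 52 CPM and in LRG1-10w at 8.42, 8.05, 12.4 and 5.01. All LRG1 libraries stayed below all eGFP libraries at both weeks, with a log2 difference of -5.08 ± 0.36 (SE) at week 7 and -2.43 ± 0.32 at week 10. Its interaction was 2.64 ± 0.44 (adjusted p = 0.0071, edgeR). Other GTPases with a called positive interaction included Iigp1 (2.75 ± 0.48, SE), Irgm2 (2.23 ± 0.31), Irgm1 (1.78 ± 0.29), Gbp6 (2.64 ± 0.38), Gbp8 (2.20 ± 0.38) and Gbp2 (1.81 ± 0.28). Ifi47 (2.35) and Gbp2b (1.51) were called too. Their sign held in all 32 alternative settings, but several calls did not. Ifi47 lost its call in 19 (adjusted p up to 0.051, edgeR, DESeq2 or limma) and Gbp2b in 7 (up to 0.016). Igtp and Iigp1 each lost theirs in 15 (adjusted p up to 0.032), Gbp8 in 17 (up to 0.13), Irgm1 in 13 (up to 0.024) and Gbp2 in 7 (up to 0.015). For Igtp the settings that lost the call included leaving out any 1 library other than eGFP-7w library 3, LRG1-7w library 2 or LRG1-10w library 4. The chemokine genes Cxcl10 (2.21 ± 0.42, adjusted p = 0.017) and Cxcl9 (2.42 ± 0.70, adjusted p = 0.14), which draw T cells, missed the threshold. Gbp, Irgm and Tgtp genes have close copies, and how reads that fit several copies were counted is not stated, so a value for 1 member of these families is uncertain.

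Among genes of interferon-gamma production and signalling, most interactions were above 0 and 1 was called. Ifng was at 1.36, 1.24, 0.692 and 1.88 CPM in eGFP-7w and at 0, 0.0338, 0 and 0.0861 in LRG1-7w. Week 10 levels ran from 0.123 to 0.270 CPM with eGFP and from 0 to 0.098 CPM with LRG1. Ifng had an interaction of 3.86 ± 1.03 (SE, adjusted p = 0.10, edgeR), which did not pass. Of 20 genes of interferon-gamma production and signalling, 1 had a called positive interaction, beside 0.307% of all tested genes. The list median was 0.70, with 16 of 20 above 0. Of the 20, 13 were called lower with LRG1 at week 7 and 2 at week 10, beside 10.7% and 5.24% of all tested genes. The receptor genes Ifngr1 (-0.03 ± 0.22) and Ifngr2 (0.17 ± 0.18) and the kinase Jak1 (0.08 ± 0.10) had values near 0. Among 25 genes induced mainly by type I interferon, 1 was called, Rtp4 (1.76 ± 0.24), beside 0.307% of all tested genes. The list median was 0.95, with 24 of 25 above 0. Of these 25 genes, 21 were called lower with LRG1 at week 7 and 2 at week 10, beside 10.7% and 5.24% of all tested genes. Ddx58, a sensor of viral RNA of that list, had 0.50 ± 0.11 (adjusted p = 0.040).

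Most MHC class II genes had a called positive interaction. Of 11 tested, 8 were called, namely H2-DMb1, Ciita, H2-Eb1, H2-DMa, H2-Ab1, H2-Aa, Cd74 and H2-DMb2, beside 0.307% of all tested genes, and the list median was 2.03. The 3 others were H2-Oa, H2-Ob and H2-Eb2, with wider standard errors of 0.64, 0.61 and 0.96. Ciita, the master activator of class II transcription (chr16:10480059-10528418), was at 71.7, 47.9, 47.6 and 57.5 CPM in eGFP-7w and at 8.99, 9.52, 6.66 and 9.70 in LRG1-7w. At week 10 it was at 15.1, 18.4, 12 and 18.8 CPM in eGFP-10w and at 12, 10.3, 10.2 and 10.4 in LRG1-10w. The groups were far apart at week 7 and nearly met at week 10, where the lowest eGFP library and the highest LRG1 library were both near 12 CPM. Ciita had an interaction of 2.10 ± 0.23 (SE, adjusted p = 0.00047, edgeR), with -2.69 ± 0.17 at week 7 and -0.59 ± 0.16 at week 10 (adjusted p = 0.016), so that the week 10 difference did not pass the threshold.

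H2-Eb1, the class II beta chain of the I-E molecule (chr17:34305867-34316674), was at 689, 569, 475 and 606 CPM in eGFP-7w and at 83.4, 93.5, 68.6 and 84.5 in LRG1-7w. In eGFP-10w it was at 127, 176, 129 and 237 CPM and in LRG1-10w at 132, 116, 136 and 90.7. The groups overlapped at week 10. Its interaction was 2.33 ± 0.27 (SE, adjusted p = 0.00047, edgeR). The summed class II level was 4061 to 6125 CPM in eGFP-7w, 752.8 to 997.6 in LRG1-7w, 1261 to 2257 in eGFP-10w and 937.2 to 1390 in LRG1-10w. At week 7, 8 of the 11 genes were called lower with LRG1, and at week 10 only 1 was, H2-DMa, beside 10.7% and 5.24% of all tested genes. With eGFP 8 of the 11 were called lower at week 10 than at week 7, beside 1.51% of all tested genes.

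MHC class I genes had positive interactions too. Of 15 genes of class I molecules and peptide loading, 8 had a called positive interaction, beside 0.307% of all tested genes, with a list median of 1.11 and 15 of 15 above 0. They were H2-Q6, H2-Q4, H2-Q7, H2-T22, the peptide transporters Tap1 and Tap2, their partner Tapbp, and Nlrc5, the class I activator. Nlrc5 was at 87.6, 61.1, 66.2 and 79.1 CPM in eGFP-7w, at 23.3, 24.4, 22.8 and 24.3 in LRG1-7w, at 35.9, 36.7, 39.9 and 39.5 in eGFP-10w and at 30.3, 28.3, 25.6 and 25.2 in LRG1-10w. LRG1 libraries were below eGFP libraries at both weeks, by -1.63 ± 0.10 (log2, SE) and -0.47 ± 0.10. The classical class I genes H2-K1 (0.92 ± 0.18, adjusted p = 0.020) and H2-D1 (0.88 ± 0.16, adjusted p = 0.013) and the shared light chain B2m (0.72 ± 0.18, adjusted p = 0.082) did not pass. The immunoproteasome subunits Psmb8 (1.70 ± 0.19), Psmb9 (1.70 ± 0.27) and Psmb10 (1.29 ± 0.15), which cut peptides for class I, passed, as did the proteasome activator Psme2 (0.76 ± 0.10). The major histocompatibility region of chromosome 17 from H2-K1 to H2-M3 (chr17:33996017-37274484) held 20 of the 64 genes (31.2%) and 146 of all tested genes (0.701%). The C57BLKS/J strain carries other H2 alleles than the reference genome, in all groups alike, and class I genes are near-identical copies, so that H2 counts per gene are uncertain.

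**Figure D3:**
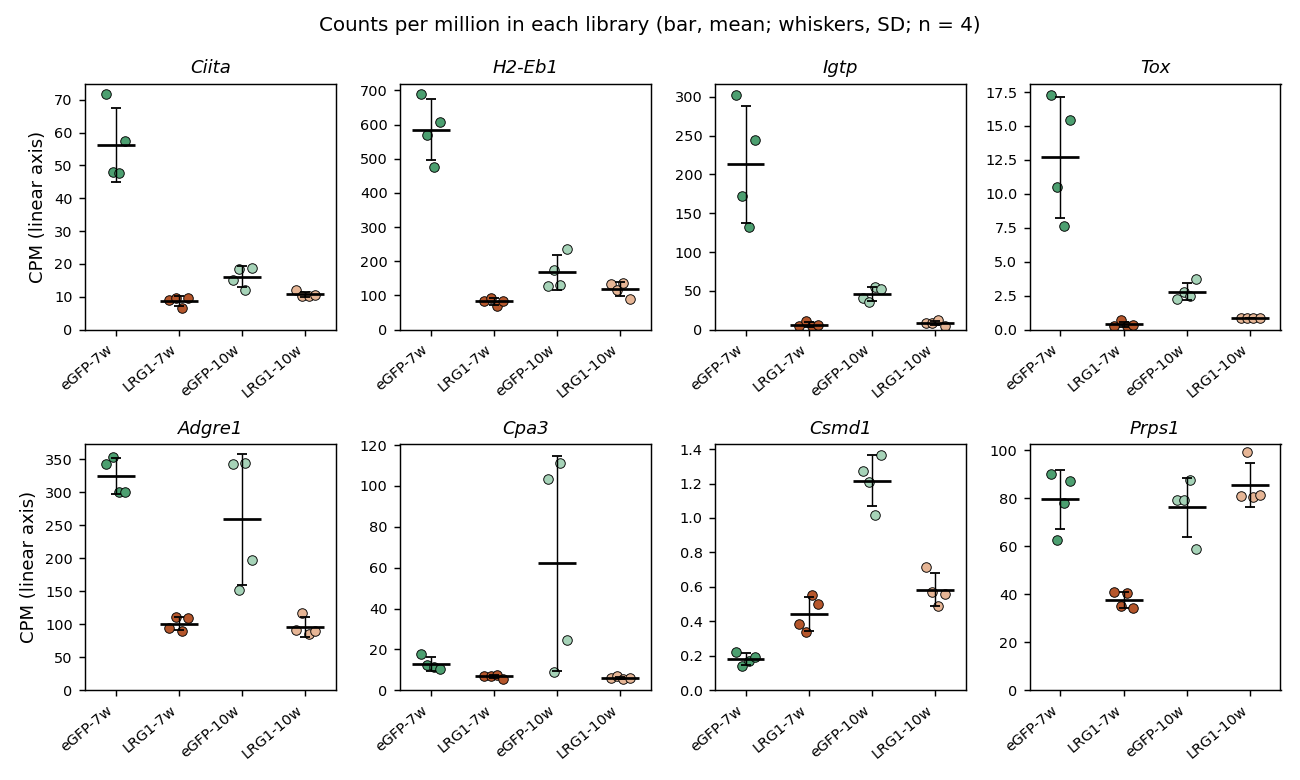
CPM of 8 genes in each library by group; points, the 4 libraries; horizontal bars, group means; whiskers, SD; y axis linear from 0. Ciita, H2-Eb1, Igtp and Tox are highest in eGFP-7w, and Adgre1 is lower with LRG1 at both weeks. The eGFP-10w libraries of Cpa3 are split from 9.18 to 111 CPM, Csmd1 is highest in eGFP-10w, and Prps1 is low in LRG1-7w only.

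A few genes known from T and NK cells had called positive interactions. Pdcd1, which encodes the checkpoint receptor PD-1 (chr1:94038305-94052553), was at 13.8, 9.05, 6.4 and 11.6 CPM in eGFP-7w and at 0.159, 0.135, 0.162 and 0.0689 in LRG1-7w. At week 10 it was at 1.33, 1.81, 2.34 and 2.07 CPM in eGFP-10w and at 0.210, 0.474, 0.490 and 0.108 in LRG1-10w. The groups stayed apart at both weeks, and Pdcd1 had the largest interaction of the called genes, 3.70 ± 0.55 (log2, SE, adjusted p = 0.0028, edgeR). Its log2 difference with LRG1 was -6.25 ± 0.41 at week 7 and -2.54 ± 0.36 at week 10.

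Tox, a transcription factor of exhausted and memory T cells, was at 17.3, 10.5, 7.60 and 15.4 CPM in eGFP-7w, at 0.271, 0.675, 0.260 and 0.362 in LRG1-7w, at 2.24, 2.74, 2.47 and 3.69 in eGFP-10w and at 0.839, 0.815, 0.833 and 0.847 in LRG1-10w. The LRG1 libraries were below the eGFP libraries at both weeks. Its interaction was 3.27 ± 0.42 (SE, adjusted p = 0.00074, edgeR). Of 16 checkpoint and exhaustion genes Tox and Pdcd1 were called, beside 0.307% of all tested genes (median 0.72). Further called genes known from T and NK cells, most of them in no list and named after their values were seen, were Sh2d2a, an adaptor of T cell receptor signalling (2.87 ± 0.49), the interleukin receptor chain Il2rb (2.33 ± 0.30), the thymocyte protein Themis (2.51 ± 0.41), and the NK receptors Klrk1 (1.96 ± 0.32) and Klrc2 (2.30 ± 0.34). Of 32 alternative settings Sh2d2a lost its call in 17, and Themis and Klrk1 each in 14, with adjusted p up to 0.029, 0.025 and 0.043 (edgeR, DESeq2 or limma). Il2rb was at 34.5, 22.9, 16.3 and 28.4 CPM in eGFP-7w, at 2.76 to 4.10 in LRG1-7w, at 6.65 to 10.4 in eGFP-10w and at 4.76 to 7.48 in LRG1-10w, where the vector groups overlapped.

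The lineage markers of T cells themselves had mostly positive interactions, but none passed the threshold. Of 21 T cell markers 0 were called in the interaction, beside 0.307% of all tested genes, which says little of a list this small. At an adjusted p below 0.05 (edgeR) 2 were higher. Of the 21, 20 were above 0, and the median was 1.40 with a median half-width of 1.03. With LRG1 18 were called lower and 1 higher at week 7, and 7 lower and 0 higher at week 10. The shares of all tested genes were 10.7% and 7.37% at week 7 and 5.24% and 3.66% at week 10. Cd3e, a chain of the T cell receptor complex, had 2.92 ± 0.55 (SE, adjusted p = 0.016, edgeR), and Cd8a had 2.05 ± 0.77 (adjusted p = 0.34). Cd8a was at 15.1, 12.6, 7.41 and 11.6 CPM in eGFP-7w, at 0.111, 1.32, 0.162 and 0.172 in LRG1-7w, at 2.85, 2.48, 4.94 and 3.24 in eGFP-10w and at 0.384, 0.341, 0.768 and 0.577 in LRG1-10w. The vector groups did not overlap at either week. Of 14 NK and cytotoxic genes 1 was called, Klrk1, beside 0.307% of all tested genes, with 14 of 14 above 0 and a median of 1.64. The summed T cell level was 76.96 to 136.9 CPM in eGFP-7w, 21.78 to 40.74 in LRG1-7w, 40.41 to 64.2 in eGFP-10w and 26.13 to 39.79 in LRG1-10w, and it moved with the interferon-gamma-induced list. Its part in that result was not tested.

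Macrophage and general leukocyte genes were lower with LRG1 at both weeks, with small median interactions in the fit of all libraries. Of 20 macrophage markers 18 were called lower with LRG1 at week 7 and 17 at week 10, beside 10.7% and 5.24% of all tested genes (median -1.39 and -1.26). In the interaction 1 was called, Aif1, beside 0.307% of all tested genes. The list median was 0.18, with 14 of 20 intervals within -1 to 1. That median was 0.69 without eGFP-10w libraries 1 and 3 and -0.25 without libraries 2 and 4. Adgre1, the F4/80 antigen, was at 343, 353, 301 and 300 CPM in eGFP-7w, at 94.9, 110, 89.5 and 109 in LRG1-7w, at 343, 152, 344 and 197 in eGFP-10w and at 91.3, 118, 85.1 and 89.2 in LRG1-10w. All LRG1 libraries were below all eGFP libraries at both weeks. The interaction of Adgre1 was 0.25 ± 0.29 (SE, 95% interval -0.36 to 0.86). Aif1, which codes for the actin-binding protein Iba1 and lies in the H2 region, was at 14.8 to 18.9 CPM in eGFP-7w, 2.53 to 3.70 in LRG1-7w, 4.95 to 7.08 in eGFP-10w and 3.24 to 4.94 in LRG1-10w, with an interaction of 1.65 ± 0.23 (adjusted p = 0.0014). Of 22 genes of most leukocytes 22 were called lower at week 7 and 21 at week 10, beside 10.7% and 5.24% of all tested genes. In the interaction 0 were called, beside 0.307% of all tested genes (median 0.23, 12 of 22 intervals within -1 to 1). That median was 0.83 without eGFP-10w libraries 1 and 3 and -0.17 without libraries 2 and 4. The summed macrophage level was 5725 to 7373 CPM in eGFP-7w, 2235 to 2647 in LRG1-7w, 3565 to 9508 in eGFP-10w and 2120 to 2946 in LRG1-10w. With LRG1 the macrophage level at week 10 overlapped its week 7 range, and with eGFP its range widened with the split of the eGFP-10w libraries. The interferon-gamma-induced list fell below its week 7 range with eGFP. The part of macrophage content in that fall was not tested.

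Some called genes known from monocytes, macrophages and dendritic cells were in none of the lists and are named after their values were seen. Of the 64 genes with a positive interaction, 33 were in a list and 31 in none. Slamf9, a receptor of myeloid cells, was at 26.4, 27.5, 24.4 and 25.7 CPM in eGFP-7w and at 5.33, 6.21, 5.59 and 7.48 in LRG1-7w. It was at 7.63, 7.7, 4.89 and 9.12 CPM in eGFP-10w and at 6.66, 7.12, 5.83 and 4.4 in LRG1-10w. The groups were apart at week 7 and overlapped at week 10, and the interaction of Slamf9 was 1.78 ± 0.24 (SE, adjusted p = 0.0012, edgeR).

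Cd86, a costimulatory molecule of antigen-presenting cells, was at 31.2, 22.3, 22.9 and 26.7 CPM in eGFP-7w, at 10.7, 11.8, 9.73 and 10.3 in LRG1-7w, at 10.9, 11.7, 11.4 and 13.7 in eGFP-10w and at 12.6, 11.9, 10.9 and 8.69 in LRG1-10w. The eGFP libraries came down to the LRG1 level by week 10, where the groups overlapped. Its interaction was 1.17 ± 0.18 (SE, adjusted p = 0.0034, edgeR). Clec4b1 (2.09 ± 0.27), Pld4 (1.22 ± 0.15) and Ly86 (1.04 ± 0.16), all of myeloid cells, had called positive interactions too.

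Ubd, the ubiquitin-like protein FAT10, which interferon-gamma and tumour necrosis factor induce, was at 236, 186, 146 and 176 CPM in eGFP-7w and at 32.4, 26.3, 24.3 and 31.2 in LRG1-7w. At week 10 its eGFP libraries were at 127, 80.1, 143 and 74.1 CPM and its LRG1 libraries at 76.4, 74.4, 63.6 and 67.5. Libraries 1 and 3 of eGFP-10w were the high ones, and the groups overlapped at week 10. The interaction of Ubd was 2.11 ± 0.27 (SE, adjusted p = 0.00075, edgeR), with 1.30 ± 0.19 between the weeks with LRG1 (adjusted p = 0.030) and -0.81 ± 0.19 with eGFP (adjusted p = 0.019), neither of which passed.

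**Figure D4:**
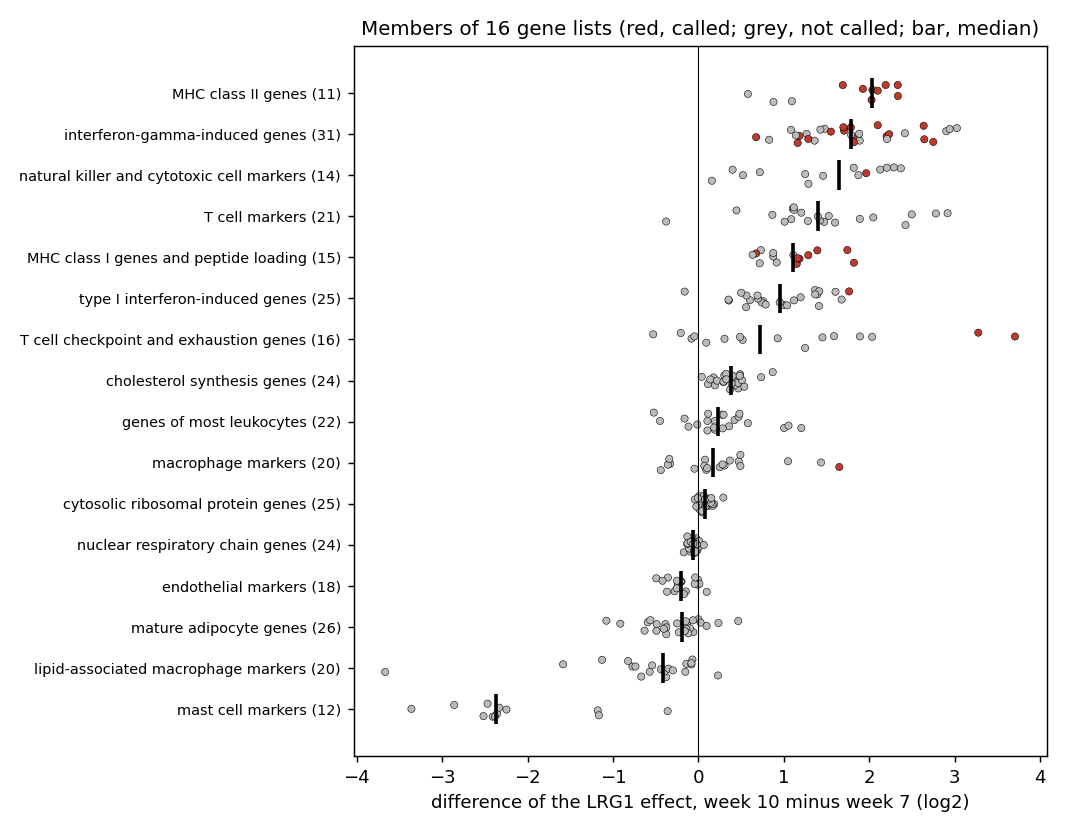
Interaction (log2, x axis) of the tested members of 16 gene lists (y axis, number tested in brackets); red, called positive; grey, not called; black bars, list medians. MHC class II and interferon-gamma-induced genes lie right of 0, macrophage, ribosomal and respiratory chain genes lie near 0, and mast cell markers lie left of 0 with none called.

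Mast cell and lipid-associated macrophage genes had negative medians that moved with the split of the eGFP-10w libraries. All 12 mast cell markers had an interaction below 0 (median -2.37, median half-width 1.57), and 0 were called in it, beside 0.0192% of all tested genes called negative. Of the 12, 0 were called lower with LRG1 at week 7 and 11 at week 10, beside 10.7% and 5.24% of all tested genes. The list median was -0.63 without eGFP-10w libraries 1 and 3 and -3.16 without libraries 2 and 4. Cpa3, a mast cell protease, was at 17.7, 12.2, 11.6 and 10.2 CPM in eGFP-7w, at 5.74 to 7.33 in LRG1-7w, at 103, 9.18, 111 and 24.5 in eGFP-10w and at 5.63 to 6.75 in LRG1-10w. Only libraries 1 and 3 of eGFP-10w were far above the others. The interaction of Cpa3 was -2.41 ± 0.73 (SE, adjusted p = 0.17, edgeR). It was -0.53 with libraries 1 and 3 of eGFP-10w left out (adjusted p = 0.43). The lipid-associated macrophage markers had a median interaction of -0.42 with 0 of 20 called, beside 0.307% of all tested genes called positive and 0.0192% negative. That median was 0.36 without libraries 1 and 3 and -0.96 without libraries 2 and 4. Of these 20 markers, 6 were called lower and 2 higher with LRG1 at week 7, beside 10.7% and 7.37% of all tested genes. At week 10, 14 were called lower and 1 higher, beside 5.24% and 3.66%. Trem2, a receptor of these cells, was at 153, 45.2, 164 and 70.8 CPM in eGFP-10w and at 69.8 to 115 in eGFP-7w, with 25.3 to 40.3 in LRG1-7w and 22.3 to 39.3 in LRG1-10w. Its interaction was -0.44 ± 0.45 (adjusted p = 0.89).

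The 4 genes with a negative interaction had no common group. In each the eGFP change between the weeks was the larger (median 1.19), and the LRG1 median was -0.17. Csmd1, a complement control protein (chr8:15892537-17535586), was at 0.222, 0.140, 0.169 and 0.192 CPM in eGFP-7w, at 0.382, 0.338, 0.552 and 0.500 in LRG1-7w, at 1.27, 1.21, 1.01 and 1.37 in eGFP-10w and at 0.716, 0.568, 0.490 and 0.559 in LRG1-10w. LRG1 libraries were above eGFP libraries at week 7 and below them at week 10, and the level is low throughout. The log2 difference was 1.29 ± 0.24 at week 7 and -1.06 ± 0.22 at week 10, and both passed (adjusted p = 0.0011 and 0.0039, edgeR). The interaction of Csmd1 was -2.35 ± 0.32 (adjusted p = 0.0014).

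Mmp11, a stromelysin of stromal cells, was the other gene called in opposite directions at the weeks. It was at 4.24, 5.06, 4.45 and 4.53 CPM in eGFP-7w, at 6.4, 10.1, 7.81 and 8.89 in LRG1-7w, at 12.3, 8.93, 13.2 and 11.7 in eGFP-10w and at 5.10, 7.94, 7.76 and 7.84 in LRG1-10w. The groups did not overlap, with LRG1 above at week 7 and below at week 10. Its interaction was -1.54 ± 0.23 (SE, adjusted p = 0.0027, edgeR). Ptgfr, the prostaglandin F receptor, was at 1.44 to 1.80 CPM in eGFP-7w, 3.34 to 5.08 in LRG1-7w, 2.80 to 4.53 in eGFP-10w and 2.43 to 3.04 in LRG1-10w, with an interaction of -1.69 ± 0.24 (adjusted p = 0.0015). Olfr1033, an olfactory receptor gene, was at 4.05 to 5.07, 5.01 to 6.82, 7.30 to 9.70 and 4.39 to 5.87 CPM in the same order of groups, with an interaction of -1.08 ± 0.19 (adjusted p = 0.0088, edgeR), a call lost in 16 of 32 alternative settings.

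Prps1 and Ptx3 moved otherwise than the interferon genes, and they are named here after their values were seen. Prps1, which makes phosphoribosyl pyrophosphate for nucleotide synthesis, was at 90.2, 62.6, 78.2 and 87.4 CPM in eGFP-7w, at 40.8, 35.2, 40.5 and 34.4 in LRG1-7w, at 79.3, 79.2, 87.6 and 58.9 in eGFP-10w and at 81.1, 99.3, 80.5 and 81.5 in LRG1-10w. It was low in LRG1-7w alone. Its interaction was 1.24 ± 0.18 (SE, adjusted p = 0.0024, edgeR), with 1.18 ± 0.13 between the weeks with LRG1 and -0.06 ± 0.13 with eGFP. Ptx3, a secreted pentraxin of innate defence, was at 26.5, 37.3, 28.2 and 21.6 CPM in eGFP-7w, at 12.4, 14.5, 9.06 and 18 in LRG1-7w, at 8.37, 4.90, 7.65 and 5.57 in eGFP-10w and at 14.3, 13.5, 9.90 and 11.1 in LRG1-10w. LRG1 libraries were lower at week 7 and higher at week 10, with an interaction of 1.96 ± 0.31 (adjusted p = 0.0041).

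No metabolic or endothelial list gene was called in the interaction. Of 26 mature adipocyte genes, 23 lipogenesis genes, 22 lipolysis and fatty acid oxidation genes and 18 endothelial genes 0 were called (medians -0.20, -0.12, -0.01 and -0.20). Beside 0.307% of all tested genes, 0 says little of lists this small. Intervals within -1 to 1 were held by 16, 14, 18 and 13 of them. Called higher with LRG1 at week 7 were 10, 11, 3 and 12, and lower 0, 1, 1 and 0, beside 7.37% and 10.7% of all tested genes. At week 10 they were 3, 4, 0 and 1 higher and 0 lower in each list, beside 3.66% and 5.24%. Without eGFP-10w libraries 1 and 3 the adipocyte and endothelial medians were -0.51 and -0.56, and without libraries 2 and 4 they were 0.25 and 0.45. All 24 nuclear respiratory chain genes, all 25 ribosomal protein genes and all 19 genes of branched-chain amino acid breakdown had intervals within -1 to 1. The 24 cholesterol synthesis genes were all above 0 with a median of 0.38, and 0 were called.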

How the data were processed

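Libraries were made from whole eWAT RNA, and the authors trimmed reads with cutadapt, aligned them with STAR to mm10 (GRCm38) and counted them per gene with featureCounts (versions, strand and treatment of reads that fit several genes not given in the sources used here). The deposited values are raw counts per gene, 45376227 to 67539937 per library. Gene symbols came from the GENCODE annotation of GRCm38, which matched 55394 of 55573 genes (179 not matched). Here the counts were scaled by TMM, filtered with filterByExpr by group and fitted in edgeR 4.0.16 (R 4.3.3) with 1 coefficient for each of the 4 groups, and the interaction was tested by the quasi-likelihood F test with Benjamini-Hochberg adjustment over 20822 genes. The SE is the log2 fold change divided by the root of F, and intervals are at 95%. CPM values are scaled by the effective library sizes. The test of many genes was checked on simulated counts in which all groups had the same spread for each gene. That check does not cover the wider spread of the eGFP-10w group. Alternatives used RLE, upper-quartile and no scaling, other filters, DESeq2 1.42.0, limma-voom 3.58.1, other thresholds, a block for the replicate number, and leaving out libraries. Depth limits low genes such as Ifng, and intervals cover the spread between these libraries, which come from different animals by the design.

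Genes named are Lrg1, for each shape of called gene (lower or higher with LRG1, mainly at week 7 or at week 10) the 4 with the smallest p and the 4 with the largest size at a mean of at least 1 CPM, up to 4 members of each list with the smallest p, members that show that a list was not called, and genes called in opposite directions at the weeks. The 52 gene lists, the contrast and the rule were chosen with earlier results of these data known. Promoters came from RefSeq (GRCm38.p6). Replicate numbers did not pair the libraries: over 24 pairs that share a number across groups, the median correlation of deviations from the group means was -0.0126 (-0.2 to 0.142). Libraries of a group correlated at 0.963 to 0.987, and no pair was a duplicate. Results of some genes are not reported here.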

Additional observations from a re-analysis of the deposited data

Results flagged for a closer look

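The LRG1 effect differed between week 7 and week 10 by the test of the difference itself in 64 genes with a positive and 4 with a negative interaction (edgeR, adjusted p below 0.01). The values that follow are interactions on the log2 scale, and the report gives the levels behind them.

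For the MHC class II genes and their activator the interactions were H2-DMb1 2.33, H2-Eb1 2.33, H2-Aa 2.19, H2-Ea-ps 2.16, Ciita 2.1, Cd74 2.04, H2-Ab1 2.03, H2-DMb2 1.92 and H2-DMa 1.69.

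For the class I, peptide loading and proteasome genes the interactions were Tap1 1.82, H2-Q6 1.74, Psmb8 1.7, Psmb9 1.7, H2-Q7 1.39, Psmb10 1.29, H2-Q4 1.29, Tap2 1.18, Nlrc5 1.16, H2-Q2 1.16, H2-T22 1.15, H2-Q5 0.91, H2-Q10 0.88, Psme2 0.76 and Tapbp 0.67.

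For the GTPases and other interferon-induced genes the interactions were F830016B08Rik 3.12, Iigp1 2.75, Igtp 2.64, Gbp6 2.64, Ifi47 2.35, Irgm2 2.23, Gbp8 2.2, Ubd 2.11, Gm4070 1.82, Gbp2 1.81, Irgm1 1.78, Rtp4 1.76, Gbp2b 1.51, Parp14 1.14, Gm5431 1.09 and Trim12c 0.84.

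For the genes known from T and NK cells or from leukocytes the interactions were Pdcd1 3.7, Tcrg-C2 3.49, Tox 3.27, Sh2d2a 2.87, Art2a-ps 2.66, Themis 2.51, Il2rb 2.33, Klrc2 2.3, Clec4b1 2.09, Klrk1 1.96, Tspan33 1.86, Slamf9 1.78, Aif1 1.65, Fgl2 1.29, Pld4 1.22, Spn 1.21, Cd86 1.17, Ly86 1.04 and Naaa 0.75.

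For the remaining genes with a positive value the interactions were Ptx3 1.96, Prps1 1.24, Engase 0.93 and Kctd12 0.8.

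The negative interactions were Csmd1 -2.35, Ptgfr -1.69, Mmp11 -1.54 and Olfr1033 -1.08.

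In 10 of 132 sets of 4 libraries tested, 1 library stood far from the others by Dixon's criterion, where chance gives about 1 in 20 sets (6.6 of 132). At week 7, Lrg1 was at 86.2 CPM in eGFP-7w library 1 and at 478 in LRG1-7w library 1, Cd8a at 1.32 CPM in LRG1-7w library 2 and Olfr1033 at 6.82 in LRG1-7w library 4, and the mean log2 CPM of the T cell markers was 1.75 in eGFP-7w library 3. At week 10, Aif1 was at 4.95 CPM in eGFP-10w library 2, Ciita at 12 and Mmp11 at 5.10 in LRG1-10w library 1, and Prps1 at 99.3 in LRG1-10w library 2, and the mean log2 CPM of the mast cell markers was 0.976 in LRG1-10w library 3.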

How the results depend on the processing

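All 68 called genes kept their sign under every alternative run. The 64 positive and 4 negative interactions became 61 and 4 with RLE scaling, 119 positive with library size only, which moves the median interaction of all genes to 0.142, and 98 positive without a filter. DESeq2 called 226 and 37, limma-voom 50 and 3, and limma-voom with quality weights 60 and 7. At an adjusted p below 0.05 there were 178 and 18. For the other contrasts, DESeq2 called 3518 genes at week 10, 1053 between the weeks with eGFP and 49 with LRG1, quality weights gave 6148 at week 7, 252 at week 10 and 10 with LRG1, and the robust fit 1 with LRG1. The 0.05 threshold gave 6555, 4761, 1220 and 10 in the order week 7, week 10, eGFP and LRG1, and a size of at least 1 gave 1408, 763 and 253 in the first 3. The replicate block left 33 positive and 2 negative genes, 34 of the 68 among them, with 6 interferon-gamma-induced and 7 class II genes, and 1174 at week 10, 258 with eGFP and 0 with LRG1 (edgeR).

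With 1 library left out, positive calls ranged from 37 to 87 and negative calls from 3 to 11, and the other contrasts from 2239 to 4412 (week 7), 284 to 3647 (week 10), 180 to 479 (eGFP) and 0 to 4 (LRG1). Positive calls fell to 37 without eGFP-7w library 4, LRG1-7w library 1 or LRG1-7w library 3, to 39 without LRG1-10w library 1 or 3, and to 41 without LRG1-7w library 4, and negative calls rose to 11 without eGFP-10w library 2. Interferon-gamma-induced calls ranged from 8 to 21 and class II calls from 7 to 8.

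An alternative chosen after seeing the data left out eGFP-10w libraries 1 and 3, or 2 and 4. Each narrows a split group by its construction, and the calls rose to 284 and 182, or to 383 and 336, with 67 or 68 of the 68 genes among them. The other contrasts were then 5945, 161, 2209 and 11, or 5921, 6365, 1716 and 28, in the same order. The macrophage median was 0.69 or -0.25, the mast cell median -0.63 or -3.16, and the adipocyte median -0.51 or 0.25. Depth limits low genes: below 1 CPM, as for Ifng, the intervals are wide.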

Other observations

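Antioxidant and tissue-resident macrophage genes gave further values that belong in no comparison above. Among 22 antioxidant genes 19 had an interaction below 0 (median -0.74, edgeR), and 0 were called at an adjusted p below 0.01, beside 0.307% of all tested genes called positive and 0.0192% negative. Gsta3, a glutathione transferase, had -1.23 ± 0.24 (SE, adjusted p = 0.018) and Gpx3, a secreted glutathione peroxidase, -0.75 ± 0.16 (adjusted p = 0.034), whereas Sod2, the mitochondrial superoxide dismutase, had 0.53 ± 0.11 (adjusted p = 0.023). With eGFP-10w libraries 1 and 3 left out the median of the list was 0.06, and with libraries 2 and 4 left out it was -1.08. Of 17 tissue-resident macrophage markers 8 were above 0 and 9 below (median -0.04, from -2.25 to 1.37), and 0 were called, beside the same shares of all tested genes. The member with the smallest adjusted p, Gas6, a ligand of receptors that clear dying cells, had an interaction of -1.0 ± 0.19 (adjusted p = 0.017).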
